A study of Arabidopsis thaliana with 24 samples.

Results

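The XTH and expansin genes of Arabidopsis thaliana were measured by RNA sequencing in pistils of 3 genotypes at 2 temperatures. They were all genes of the count table whose name was XTH, EXPA or EXPB followed by a number, which gave 59 of 33055 genes: 32 XTH, 21 EXPA and 6 EXPB. Of these, 46 were detected, with 10 or more counts summed over the 24 libraries (26 XTH, 17 EXPA and 3 EXPB), and 37 passed the filter on low counts and were tested (21 XTH, 13 EXPA and 3 EXPB). A further 5 genes of the same families are spelled with the prefix AT in the table (ATEXPA1, ATEXPA10, ATEXPA12, ATEXPA14 and ATXTH17) and fell outside the name rule.

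The 6 groups had 4 biological replicates each: 35S::PIF4 at hAT, 35S::PIF4 at nAT, phyB at hAT, phyB at nAT, Col-0 at hAT and Col-0 at nAT. 35S::PIF4 carries the PIF4 transcription factor gene behind a constitutive viral promoter, phyB is the phyb-9 mutant of phytochrome B, which senses red light and warmth, and Col-0 is the wild type. High ambient temperature (hAT) was 28 °C by day and 24 °C by night, and normal ambient temperature (nAT) was 21 °C and 18 °C, with 16 h of light in every group. Plants of every group grew at nAT until flowering began, and those of the hAT groups were then moved. RNA came from pistils of flowers at stages 11 and 12, before the anthers open. The comparisons address how the pistil's wall-loosening genes differ with temperature, and whether the phyB-PIF4 pathway sets that difference.

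Xyloglucan is the main hemicellulose of the primary wall, where it coats and tethers cellulose. XTH enzymes cut a xyloglucan chain and rejoin the cut end to another chain or to water, and expansins loosen the contacts between wall polymers without cutting any chain. α-Expansins are encoded by EXPA genes and β-expansins by EXPB genes. Many members respond to hormones, touch, light and temperature, and in a pistil such enzymes act where the carpel wall, the style and the ovules grow and where pollen tubes pass.

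The members that the results turn on are shown first by the coding bases around the active site, the stretch that defines an XTH enzyme. It was found by its conserved residues in 31 of 32 XTH members, and not by that pattern in XTH11. The capitals mark the 30 bases of the active-site codons, and lower case letters are the flanking coding bases, all within 1 exon and written 5′ to 3′ on the coding strand of TAIR10.
XTH22, AT5G57560, chr5:23307824-23307883, minus strand: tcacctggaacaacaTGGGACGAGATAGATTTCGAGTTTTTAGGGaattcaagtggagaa
XTH23, AT4G25810, chr4:13129054-13129113, plus strand: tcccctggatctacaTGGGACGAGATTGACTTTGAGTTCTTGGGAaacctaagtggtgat
XTH24, AT4G30270, chr4:14820027-14820086, minus strand: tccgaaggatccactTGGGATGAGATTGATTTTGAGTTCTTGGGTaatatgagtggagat
XTH3, AT3G25050, chr3:9127349-9127408, plus strand: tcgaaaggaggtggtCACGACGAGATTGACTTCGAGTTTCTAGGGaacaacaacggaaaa
XTH5, AT5G13870, chr5:4475699-4475758, minus strand: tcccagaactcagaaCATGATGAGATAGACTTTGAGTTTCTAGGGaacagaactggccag
XTH9, AT4G03210, chr4:1416520-1416579, plus strand: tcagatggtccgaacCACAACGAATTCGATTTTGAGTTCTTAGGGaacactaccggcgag

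XTH23 shared 24 of the 30 active-site bases with XTH22, as did XTH24 and XTH3, while XTH9 shared 21. Over the whole coding sequence XTH22 and XTH23 were each other's closest member, with 79.2% of the aligned columns identical, and the closest member to XTH9, XTH7, reached only 59.4%. XTH22, XTH25, XTH13 and XTH12 lie next to one another on chromosome 5 between 23300321 and 23308680. XTH24, XTH18 and XTH19 lie together on chromosome 4 between 14819192 and 14830224. Reads of near-identical genes cannot be assigned with certainty, and this touches EXPA22 and EXPA26 (97.7% identical), EXPA23 and EXPA25 (97.1%), XTH12 and XTH13 (89.4%), and XTH18 and XTH19 (87.6%).

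The windows from 250 bases before the annotated gene start to 50 bases after it were read for 4 short motifs on both strands, because PIF proteins are known to bind the G-box (CACGTG) and the PBE-box (CACATG), brassinosteroid factors of the BZR1 family the BRRE (CGTGTG or CGTGCG), and heat shock factors paired GAA blocks (GAANNTTC). The motifs do not overlap one another in the windows printed here. No detected member had a G-box, against 7.7% of 27419 protein-coding genes. A PBE-box stood in 7 of 46 detected members (15.2%, against 12.9% of all genes), a BRRE in 5 (10.9%, against 8.2%) and the heat shock block in 4 (8.7%, against 11.6%). EXPA11 was the only detected member with 2 PBE-boxes. XTH22 and XTH23 are printed beside it because their temperature responses differed most between 35S::PIF4 and phyB: the window of XTH23 held a single BRRE, and that of XTH22 none of the 4 motifs. Capitals mark motif matches.
EXPA11, AT1G20190, chr1:6999790-7000089, minus strand: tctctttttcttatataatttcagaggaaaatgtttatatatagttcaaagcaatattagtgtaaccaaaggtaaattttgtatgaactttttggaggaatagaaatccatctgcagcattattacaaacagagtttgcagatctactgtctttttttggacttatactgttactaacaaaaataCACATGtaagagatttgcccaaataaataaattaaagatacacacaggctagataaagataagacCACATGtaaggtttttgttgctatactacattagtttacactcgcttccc
XTH22, chr5:23308631-23308930, minus strand: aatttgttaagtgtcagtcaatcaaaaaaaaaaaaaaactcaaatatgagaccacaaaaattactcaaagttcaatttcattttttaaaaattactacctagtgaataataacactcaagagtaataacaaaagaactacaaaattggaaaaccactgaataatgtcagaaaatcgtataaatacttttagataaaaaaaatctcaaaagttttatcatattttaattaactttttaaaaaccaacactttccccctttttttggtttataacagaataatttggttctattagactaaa
XTH23, chr4:13128144-13128443, plus strand: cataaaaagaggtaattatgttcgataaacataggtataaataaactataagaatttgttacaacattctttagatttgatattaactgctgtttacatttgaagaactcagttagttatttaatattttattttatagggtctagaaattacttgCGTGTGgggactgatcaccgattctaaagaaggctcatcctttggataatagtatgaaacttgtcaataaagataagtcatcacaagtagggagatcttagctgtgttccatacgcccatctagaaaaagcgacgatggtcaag

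The libraries held 18379748 to 30184035 counts. Those of Col-0 at nAT stood apart: the mean gene length behind a count was 1612 to 1804 bases, against 2065 to 2220 in the other 20 libraries, and the 10 most abundant genes took 6.42% to 6.62% of counts, against 3.28% to 3.86%. Every comparison with Col-0 at nAT rests on these libraries. The members tested were shorter (median 1373 bases) than all genes tested (1731). The phyB libraries at hAT fell into pairs, replicates 1 and 2 with summed pollen markers of 62.5 and 65.8 CPM, and replicates 3 and 4 with 130 and 129 CPM. The pistil label was borne out by 7 carpel and ovule markers, which summed to 421 to 557 CPM in every library; the lowest, CRC, averaged 7.86 ± 5.56 CPM in phyB at hAT. The PIF4 level did not set 35S::PIF4 apart from phyB at hAT. PIF4 reached 4.42 ± 0.67 CPM in 35S::PIF4 at hAT and 5.93 ± 0.31 CPM in 35S::PIF4 at nAT, 3.79 ± 0.25 CPM in phyB at hAT and 3.52 ± 0.85 CPM in phyB at nAT, against 2.43 ± 0.30 CPM in Col-0 at hAT and 2.11 ± 0.64 CPM in Col-0 at nAT (SD, n = 4 each). PHYB was still transcribed in phyB, at 77.0 ± 4.1 CPM at hAT and 62.8 ± 2.0 CPM at nAT, and its level does not check a mutation that leaves the transcript in place.

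Levels are given as CPM, counts scaled to a library size common to all libraries after TMM correction, and between genes as CPM per kb of gene length. XTH9, a gene known from shoot apices and stems, was the most abundant member per kb in every group mean, by a wide margin at nAT and by little over EXPA6 at hAT in 35S::PIF4 and phyB. Its mean level was 292 CPM per kb in 35S::PIF4 at hAT, 649 in 35S::PIF4 at nAT, 368 in phyB at hAT, 737 in phyB at nAT, 386 in Col-0 at hAT and 2307 in Col-0 at nAT. EXPA6 was next, at 290 CPM per kb in 35S::PIF4 at hAT, 302 in 35S::PIF4 at nAT, 337 in phyB at hAT, 245 in phyB at nAT, 278 in Col-0 at hAT and 610 in Col-0 at nAT. XTH16, XTH15, EXPA15, XTH6, XTH4 and EXPB3 followed, and the other members were lower. The 37 tested members were highest in Col-0 at nAT in 21 cases, in phyB at nAT in 5, in Col-0 at hAT in 4, in 35S::PIF4 at nAT in 3, and in phyB or 35S::PIF4 at hAT in 2 each. The same count is not given over all genes, so it is not read as a trait of these families.

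Summed over all members, the families took 2207 ± 14 CPM in 35S::PIF4 at hAT, 2846 ± 124 in 35S::PIF4 at nAT, 2469 ± 81 in phyB at hAT, 3148 ± 23 in phyB at nAT, 2305 ± 30 in Col-0 at hAT and 6843 ± 1470 in Col-0 at nAT (SD, n = 4 each). The 3 hAT groups thus lay within 2193 to 2585 CPM in every library, and the nAT groups were all above them. XTH9 made up much of this. Without it, the XTH genes summed to 715 ± 5 CPM in 35S::PIF4 at hAT and 680 ± 31 at nAT, 718 ± 34 in phyB at hAT and 1104 ± 16 at nAT, and 715 ± 13 in Col-0 at hAT and 1190 ± 55 at nAT. So phyB and Col-0 had a higher sum of the other XTH genes at nAT than at hAT in every library, while the 35S::PIF4 libraries overlapped. EXPA genes ran the other way in phyB, with 1064 ± 23 CPM at hAT and 801 ± 2 CPM at nAT. In Col-0 they summed to 911 ± 7 CPM at hAT and 1814 ± 220 CPM at nAT. In 35S::PIF4 the sums were 964 ± 10 CPM at hAT and 989 ± 67 CPM at nAT. The AT-prefixed ATEXPA1 and ATEXPA10, with means of 93.46 and 93.51 CPM over all libraries, are not in these sums. EXPB genes were dominated by EXPB3.

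**Figure D1:**
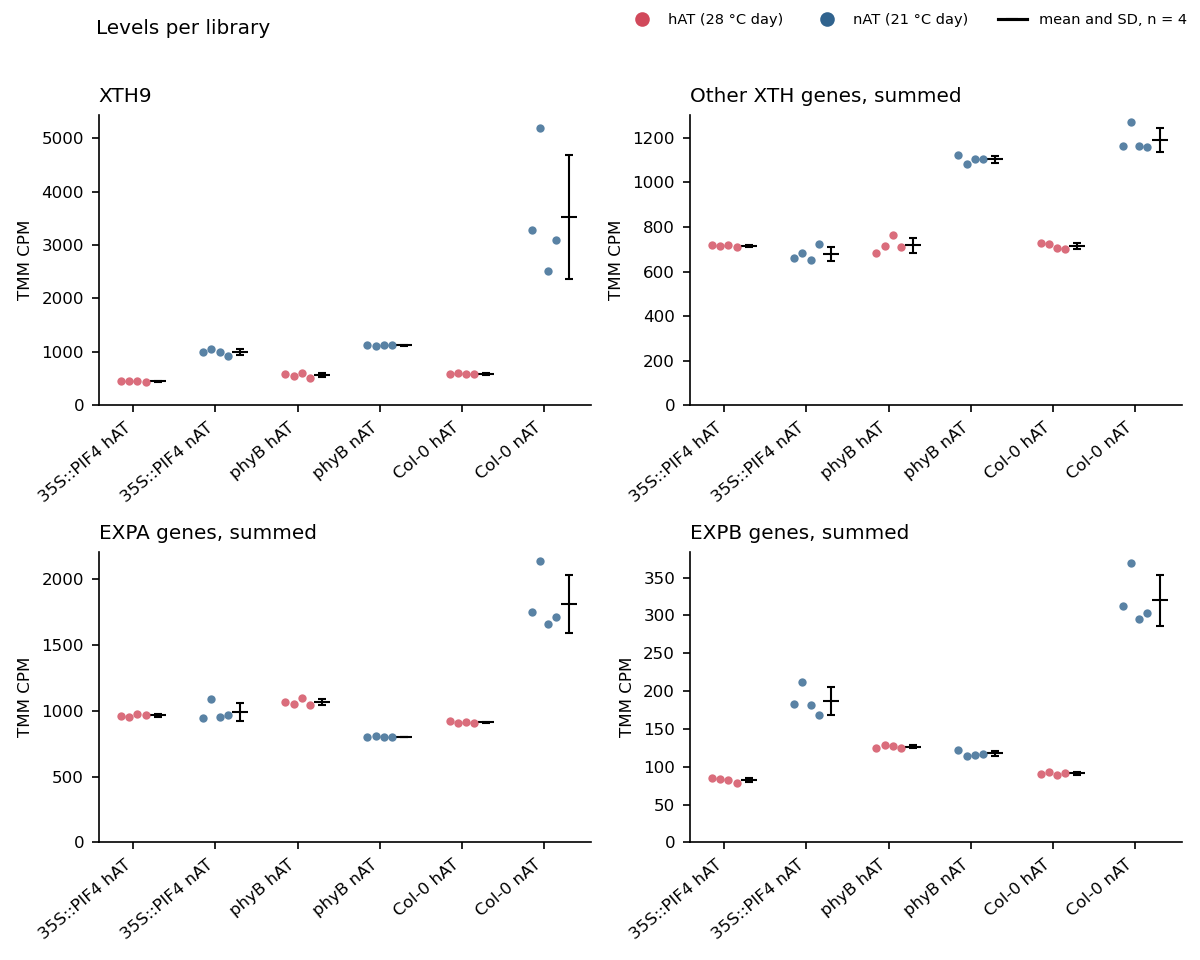
TMM-scaled CPM (vertical axes, from 0) of XTH9, of the other XTH genes summed, of the EXPA genes summed and of the EXPB genes summed, with 1 point for each of the 4 libraries of the 6 groups and the mean with its SD beside them. The Col-0 libraries at nAT reach 2508 to 5197 CPM for XTH9, and those of the other 5 groups lie between 438 and 1137 CPM.

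**Figure D2:**
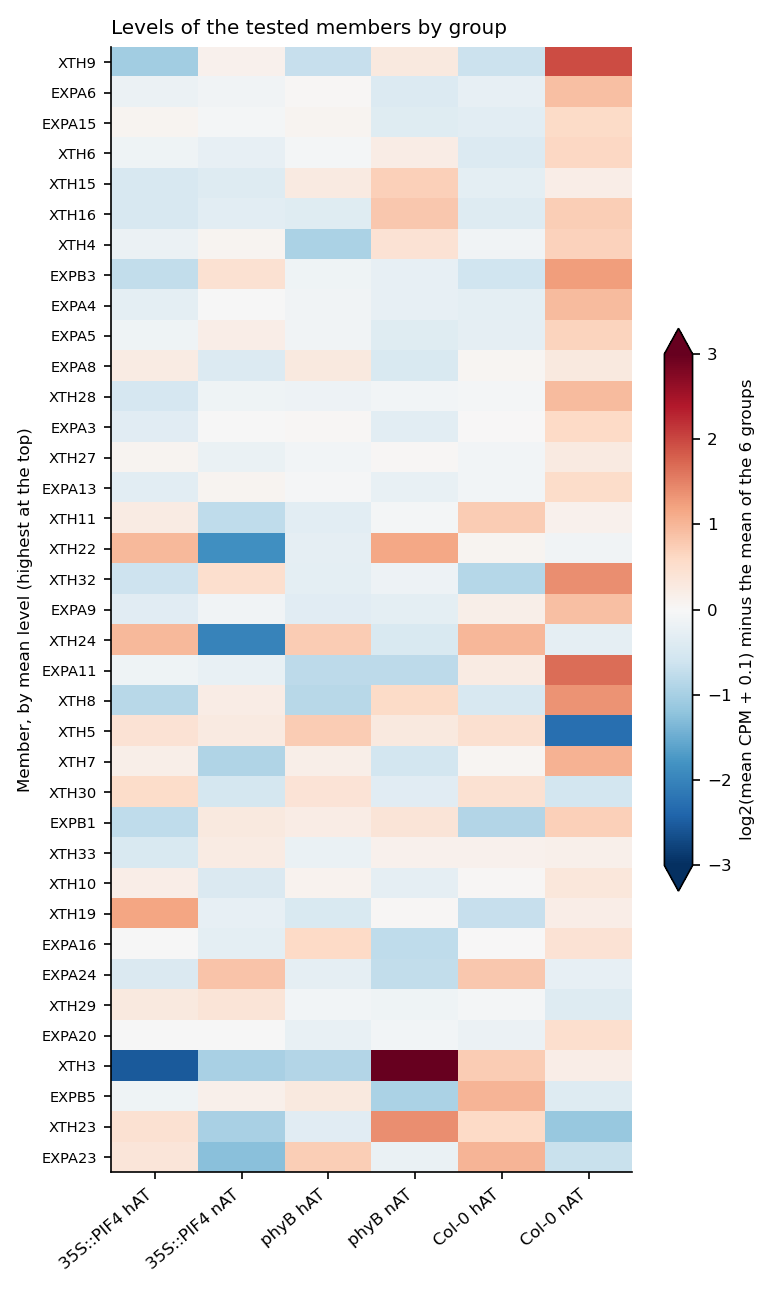
Heat map of the 37 tested members (rows, most abundant at the top) over the 6 groups (columns), coloured by log2(mean CPM + 0.1) minus that member's mean over the groups. Most rows are reddest in Col-0 at nAT, XTH5 is bluest there, and XTH3 stands out in phyB at nAT, where it exceeds the colour scale.

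The first comparison asks how Col-0 pistils at hAT differ from those at nAT. At an adjusted p under 0.05 and a log2 fold change of at least 1 in size, 11 of the 37 tested members fell and 7 rose at hAT. Of all 21312 genes tested, 13.4% were called lower and 24.2% higher, beside 29.7% and 18.9% of the members. Their median log2 fold change was -0.63, beside 0.142 over all genes. In an alternative fit the dependence of level on gene length was taken out of every library (the length offset). The members' median kept its sign, at -0.461 beside 0.000 over all genes, while 8 members were lower and 8 higher. Of all genes, 11.1% were then called lower and 17% higher. The members' share called higher was then near that of all genes. Since these are bulk samples, fewer cells of a type and less RNA per cell cannot be told apart.

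XTH9 had 595, 604, 578 and 578 CPM in the 4 Col-0 libraries at hAT, against 3278, 5197, 2508 and 3097 CPM at nAT. The groups did not overlap, and replicate 2 at nAT was the highest library. Such separation was common in Col-0. Of all genes tested, 31.4% were lower in every hAT library than in any nAT library, and 40.5% were higher. XTH9 fell by 2.58 on the log2 scale (SE 0.13, adjusted p = 6.72e-16 in edgeR). XTH32, a member of the small XTH branch that includes xyloglucan hydrolases, had 11.6, 10.9, 12.4 and 10.9 CPM at hAT, against 53.6, 72.4, 46.0 and 50.1 CPM at nAT. Replicate 2 at nAT was again the highest, and no library of one temperature reached the other. XTH32 fell by 2.27 (SE 0.11, adjusted p = 7.56e-16). XTH8 had 5.87 ± 1.06 CPM at hAT and 21.1 ± 1.8 CPM at nAT (SD, n = 4 each), and fell by 1.86.

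Of the 3 tested β-expansin genes, EXPB3 and EXPB1 fell and EXPB5 rose. EXPB3 had 87.2, 88.4, 85.9 and 88.8 CPM at hAT, against 306, 359, 287 and 294 CPM at nAT, and fell by 1.83 (SE 0.07, adjusted p = 2.25e-18). EXPB1 had a mean of 2.69 CPM at hAT and 8.34 CPM at nAT, a log2 fold change of -1.63. Among α-expansins, EXPA11 fell by 1.43, EXPA4, known from pollen tubes, by 1.25 and EXPA6 by 1.13. EXPA11 had 15.7, 16.4, 17.4 and 19.4 CPM at hAT, against 43.4, 67.0, 35.5 and 40.3 CPM at nAT. EXPA6 had 445, 436, 441 and 446 CPM at hAT, against 980, 1089, 886 and 924 CPM at nAT. XTH16, XTH6 and XTH7 were also called lower, with log2 fold changes of -1.12, -1.03 and -1.001. These last 3 were no longer past the fold of 2 with the length offset, at -0.75, -0.88 and -0.69.

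XTH5 had the largest rise of the 7 members called higher. It had 11.3, 11.5, 9.39 and 9.53 CPM in Col-0 at hAT, against 0.970, 1.69, 1.42 and 1.80 CPM at nAT, a log2 fold change of 2.82 (SE 0.14, adjusted p = 1.35e-15). In the other 5 groups every library had between 8.59 and 13.7 CPM, so Col-0 at nAT was the group that differed. XTH24, known as MERI5, had 31.5, 35.3, 31.0 and 29.5 CPM at hAT, against 16.1, 12.4, 11.8 and 12.7 CPM at nAT, with a log2 fold change of 1.26 (SE 0.23, adjusted p = 1.74e-05). XTH30 rose by 1.02, and its fold was under 2 without Col-0 replicate 3 at hAT (0.978) or without replicate 1 or 2 at nAT (0.960 and 0.962). XTH23, EXPA23, EXPA24 and EXPB5, the last known from pollen tubes, were called higher at levels of 0.618 to 1.16 CPM at hAT and 0.117 to 0.509 CPM at nAT, where a group held few counts.

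**Figure D3:**
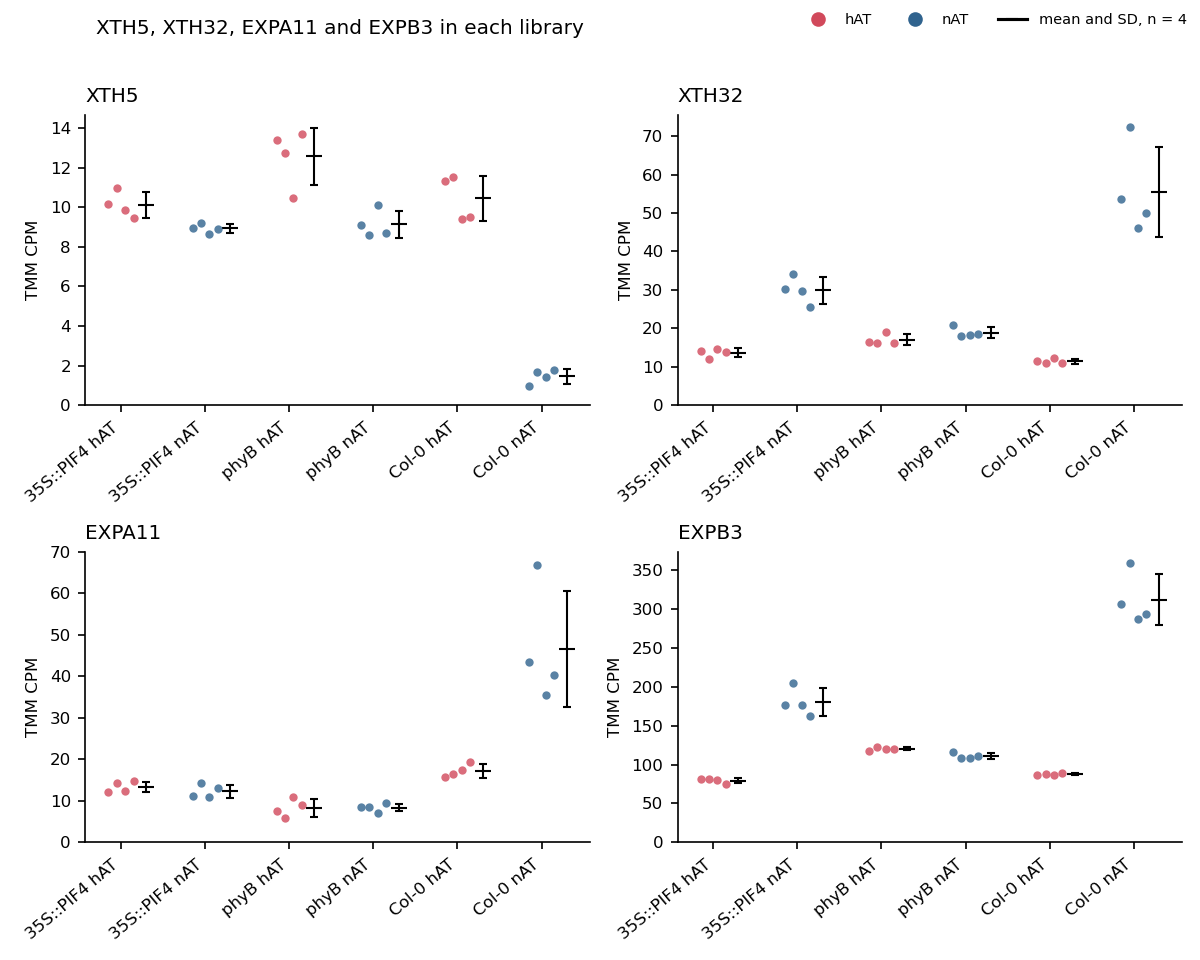
TMM-scaled CPM (vertical axes) of XTH5, XTH32, EXPA11 and EXPB3 in each of the 24 libraries, with the mean and SD of the 4 libraries of each group. XTH5 is at 0.970 to 1.80 CPM in Col-0 at nAT and at 8.59 CPM or more in every other library, while XTH32, EXPA11 and EXPB3 are highest in Col-0 at nAT.

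Markers of other tissues moved with the same contrast. The 8 pollen markers summed to 146 to 155 CPM in the Col-0 libraries at hAT, against 28.6 to 59.2 CPM at nAT, and 7 of the 8 were called higher. The 10 tapetum markers summed to 57.1 to 60.0 CPM at hAT, against 24.6 to 60.9 CPM at nAT, with 3 of 5 tested markers higher. MS1 was at 0 in every group mean. The petal and stamen identity genes AP3 and PI ran the other way, summing to 54.6 to 59.9 CPM at hAT, against 75.8 to 102 CPM at nAT, and neither was called. The part of these tissues in the members' changes was not tested.

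The same question was asked in phyB. There 7 of the 37 tested members fell at hAT and 4 rose, where 3.46% of all genes were called lower and 4.63% higher. The median of the members was 0.006, beside -0.002 over all genes. All 7 members that fell were XTH genes (7 of 21 tested), and none of the 13 EXPA or 3 EXPB genes tested was called lower. With 3.46% of all genes called lower, a count of 0 among so few expansin genes is near that background. It is not read as a contrast with the XTH genes. Without replicates 3 and 4 at hAT, 6 fell and 1 rose, where 3.81% of all genes were called lower and 3.77% higher. Tapetum markers summed to 45.3 to 59.6 CPM in phyB at hAT, against 77.9 to 81.7 CPM at nAT, and AP3 and PI to 29.1 to 45.4 CPM at hAT, against 63.6 to 69.6 CPM at nAT. Pollen markers summed to 62.5 to 130 CPM at hAT, against 94.9 to 98.5 CPM at nAT. The part of these tissues in the phyB changes was not tested.

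XTH3 had 0.135, 0.436, 0.410 and 0.141 CPM in phyB at hAT, against 7.09, 7.60, 8.63 and 5.79 CPM at nAT. Every nAT library was far above every hAT library, and XTH3 fell by 4.61 on the log2 scale (SE 0.36, adjusted p = 1.41e-10). XTH22, the touch gene TCH4, had 21.1, 23.2, 16.6 and 16.4 CPM at hAT, against 51.6, 49.9, 52.1 and 52.2 CPM at nAT, and fell by 1.42 (SE 0.09, adjusted p = 3.93e-12). XTH4, known from wood-forming tissue, had 67.9, 65.0, 79.2 and 79.9 CPM at hAT, against 198, 188, 191 and 186 CPM at nAT, and fell by 1.39 (SE 0.06, adjusted p = 2.99e-15). The hAT and nAT libraries of these 3 genes did not overlap. The same held for many genes in phyB, with 24.8% of all genes tested wholly lower at hAT and 23.2% wholly higher.

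XTH16 had 110 ± 11 CPM in phyB at hAT and 248 ± 5 CPM at nAT (SD, n = 4 each), with a log2 fold change of -1.17. XTH8 and XTH23 fell by 1.43 and 2.08. XTH9 had 586, 541, 600 and 518 CPM at hAT, against 1127, 1114, 1121 and 1137 CPM at nAT. Its log2 fold change of -1.003 (SE 0.12, adjusted p = 2.38e-07) was at the threshold and was -0.98 with the length offset. EXPA16 rose by 1.55 (SE 0.32, adjusted p = 3.62e-04), with 1.32 CPM at hAT and 0.455 CPM at nAT. EXPA23 and EXPB5 were called higher at means of 0.529 and 0.485 CPM at hAT, against 0.227 and 0.148 CPM at nAT.

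XTH24 in phyB depended on which libraries were used. It had 14.6, 15.9, 38.8 and 38.2 CPM at hAT, against 12.1, 11.4, 11.4 and 11.3 CPM at nAT. Its log2 fold change was 1.23 (SE 0.22, adjusted p = 8.10e-05) with all libraries, 0.98 without replicate 3 at hAT and 0.40 without replicates 3 and 4. XTH7 split in the same way, at 5.39, 5.89, 10.9 and 10.2 CPM at hAT. Replicates 3 and 4 also held the higher sums of pollen markers, of tapetum markers (59.6 and 57.8 CPM, against 45.3 and 46.2 CPM in replicates 1 and 2) and of AP3 and PI (45.4 and 43.5 CPM, both above replicates 1 and 2). The part of these tissues in the split was not tested.

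In 35S::PIF4, 8 of the 37 tested members rose at hAT and 7 fell, where 8.5% of all genes were called higher and 2.48% lower. The median of the members was -0.081, beside -0.009 over all genes. Of the 8 that rose, 7 were XTH genes. Tapetum markers summed to 42.9 to 43.9 CPM at hAT, against 19.8 to 38.4 CPM at nAT, while pollen markers (111 to 121 CPM at hAT, against 61.8 to 117 CPM at nAT) and AP3 with PI overlapped. The part of these tissues was not tested here either. The genes that rose furthest among the members above 1 CPM were XTH24 and XTH22. XTH24 had 31.1, 32.6, 29.8 and 31.3 CPM at hAT, against 3.96, 2.73, 3.22 and 5.62 CPM at nAT. It rose by 3.03 on the log2 scale (SE 0.25, adjusted p = 1.89e-10). XTH22 had 46.8, 42.0, 45.8 and 46.0 CPM at hAT, against 5.98, 5.62, 7.30 and 6.78 CPM at nAT. It rose by 2.82 (SE 0.10, adjusted p = 8.47e-18), and the 2 temperatures were apart in every library for both genes. Of all genes tested, 25.2% were likewise wholly higher at hAT in 35S::PIF4 and 27.8% wholly lower.

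XTH19, one of the auxin-responsive XTH genes of the root, had 4.80, 2.78, 3.77 and 4.07 CPM in 35S::PIF4 at hAT, against 1.39, 1.40, 1.17 and 1.49 CPM at nAT, and rose by 1.5 (SE 0.27, adjusted p = 4.57e-05). XTH30, XTH7 and XTH11 rose by 1.11, 1.11 and 1.03. XTH23 and EXPA23 were called higher at means of 0.557 and 0.385 CPM at hAT, against 0.143 and 0.0574 CPM at nAT. EXPB3 had 81.7, 81.0, 79.5 and 75.4 CPM at hAT, against 176, 205, 177 and 162 CPM at nAT, and fell by 1.18 (SE 0.07, adjusted p = 7.15e-14). XTH9 had 448, 450, 446 and 438 CPM at hAT, against 990, 1048, 1005 and 919 CPM at nAT, and fell by 1.15 (SE 0.12, adjusted p = 1.22e-08). XTH32, EXPB1 and XTH8 fell by 1.14, 1.07 and 1.06. EXPB1 was at -0.97 without replicate 2 at nAT. EXPA24 fell by 1.46 with libraries that overlapped.

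XTH3 had only 2 counts in 35S::PIF4 at hAT, against 24 at nAT. The ratio of the rates was 0.0948, with an exact 95% interval of 0.0109 to 0.382 that covers counting error only.

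The design allows a test of whether the temperature response itself differed among genotypes. The comparison of 35S::PIF4 with phyB uses no Col-0 library. Here 6 of the 37 members had a higher response in 35S::PIF4 than in phyB and 3 a lower one, where 5.46% of all genes were called higher and 0.896% lower. All 6 with a higher response were XTH genes. At a share of 5.46% over all genes, a count of 0 among the few expansin genes tested is near that background. XTH22 differed by 4.23 on the log2 scale (SE 0.14, adjusted p = 2.43e-18), since it was higher at hAT in every 35S::PIF4 library and lower at hAT in every phyB library. In Col-0 it had 23.02, 26.7, 22.9 and 25.1 CPM at hAT, against 19.6, 21.1, 24.9 and 20.7 CPM at nAT, groups that overlapped. The level of XTH22 in phyB at nAT (51.4 ± 1.0 CPM) was thus near that in 35S::PIF4 at hAT (45.1 ± 2.2 CPM), and both were above all Col-0 libraries.

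XTH23, the member closest to XTH22 in sequence, was far less abundant. It had 0.553, 0.789, 0.566 and 0.320 CPM in 35S::PIF4 at hAT, against 0.0421, 0.0665, 0 and 0.465 CPM at nAT. In phyB it had 0.225, 0.131, 0.158 and 0.609 CPM at hAT, against 0.853, 1.79, 0.950 and 1.05 CPM at nAT. The highest nAT library of 35S::PIF4 overlapped its hAT libraries, and the phyB groups did not overlap. The responses differed by 4.14 (SE 0.83, adjusted p = 5.64e-04).

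XTH24, XTH19, XTH11 and XTH4 also had a higher response in 35S::PIF4 than in phyB, by 1.81, 2.06, 1.27 and 1.13 on the log2 scale. XTH24 rested in part on the divided phyB libraries at hAT. XTH19 had 0.898, 1.61, 0.789 and 1.36 CPM in phyB at hAT, against 1.26, 1.88, 2.34 and 1.28 CPM at nAT, groups that overlapped. EXPB3, EXPA24 and EXPA16 had a lower response in 35S::PIF4, with differences of -1.29, -2.05 and -1.24. EXPB3 had 118, 122, 121 and 119 CPM in phyB at hAT, against 116, 108, 108 and 111 CPM at nAT, groups that lay close to each other, and the test of the difference between responses had an SE of 0.09 and an adjusted p of 7.83e-11.

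**Figure D4:**
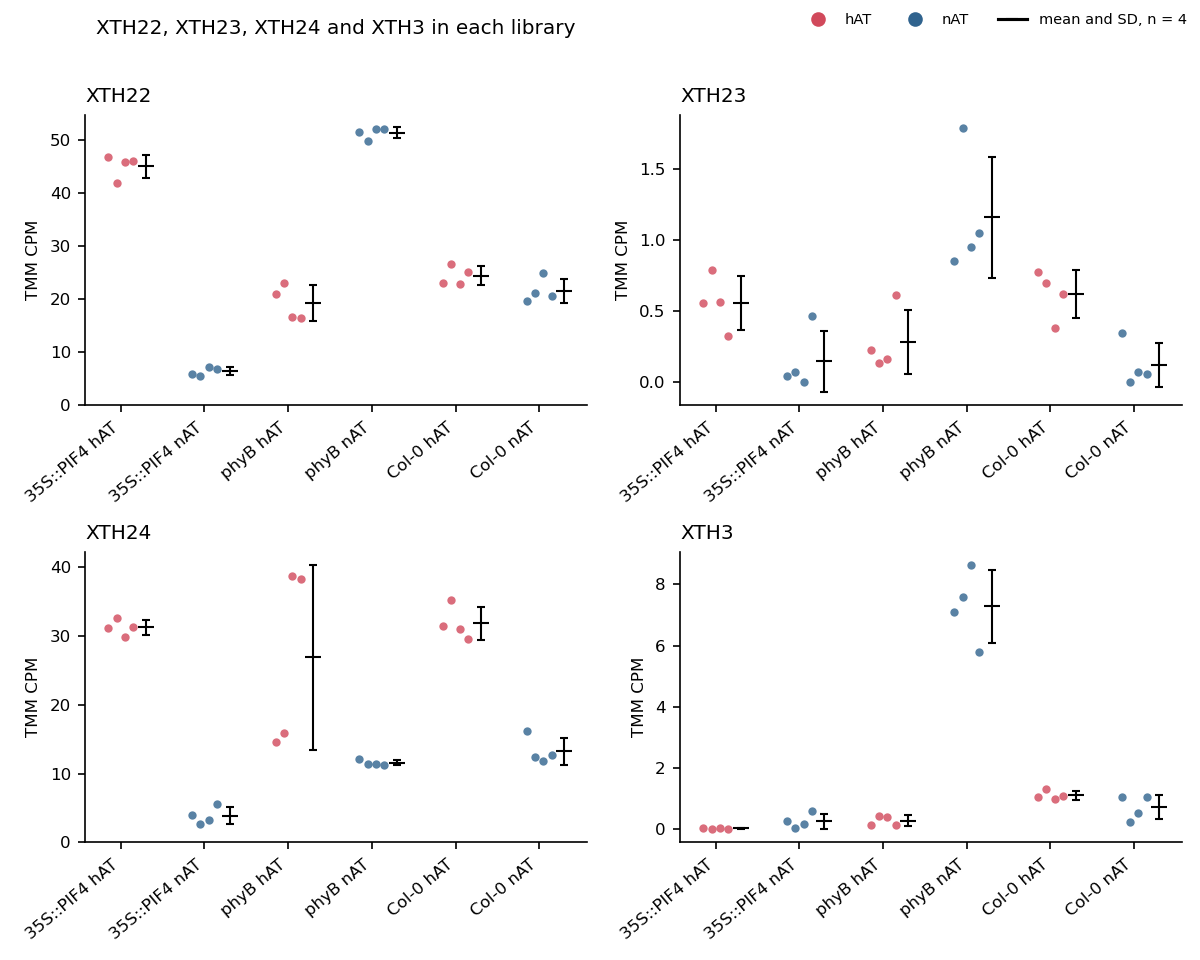
TMM-scaled CPM (vertical axes) of XTH22, XTH23, XTH24 and XTH3 in each of the 24 libraries, with the mean and SD of the 4 libraries of each group. XTH22 lies at 42.0 to 46.8 CPM in 35S::PIF4 at hAT and 5.62 to 7.30 CPM at nAT, and at 16.4 to 23.2 CPM in phyB at hAT and 49.9 to 52.2 CPM at nAT.

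Against Col-0, the phyB response was higher for 11 members and lower for 4, where 10.6% of all genes were called higher and 21.6% lower. The 35S::PIF4 response was higher for 10 members and lower for 4, where 11.8% were called higher and 19.4% lower. Both comparisons use the same Col-0 libraries, so their values stand side by side and are not independent. For XTH5 the difference from the response of Col-0 was -2.36 in phyB (SE 0.18, adjusted p = 1.46e-11) and -2.64 in 35S::PIF4 (SE 0.18, adjusted p = 2.24e-12). For XTH32 it was higher by 2.13 in phyB (SE 0.16, adjusted p = 7.36e-12) and by 1.14 in 35S::PIF4 (SE 0.16, adjusted p = 4.84e-07). XTH9 had a response 1.58 higher in phyB and 1.43 higher in 35S::PIF4, and EXPA6 one 1.59 and 1.08 higher. For XTH3 the phyB response minus that of Col-0 was -5.18 (SE 0.54, adjusted p = 4.51e-09).

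**Figure D5:**
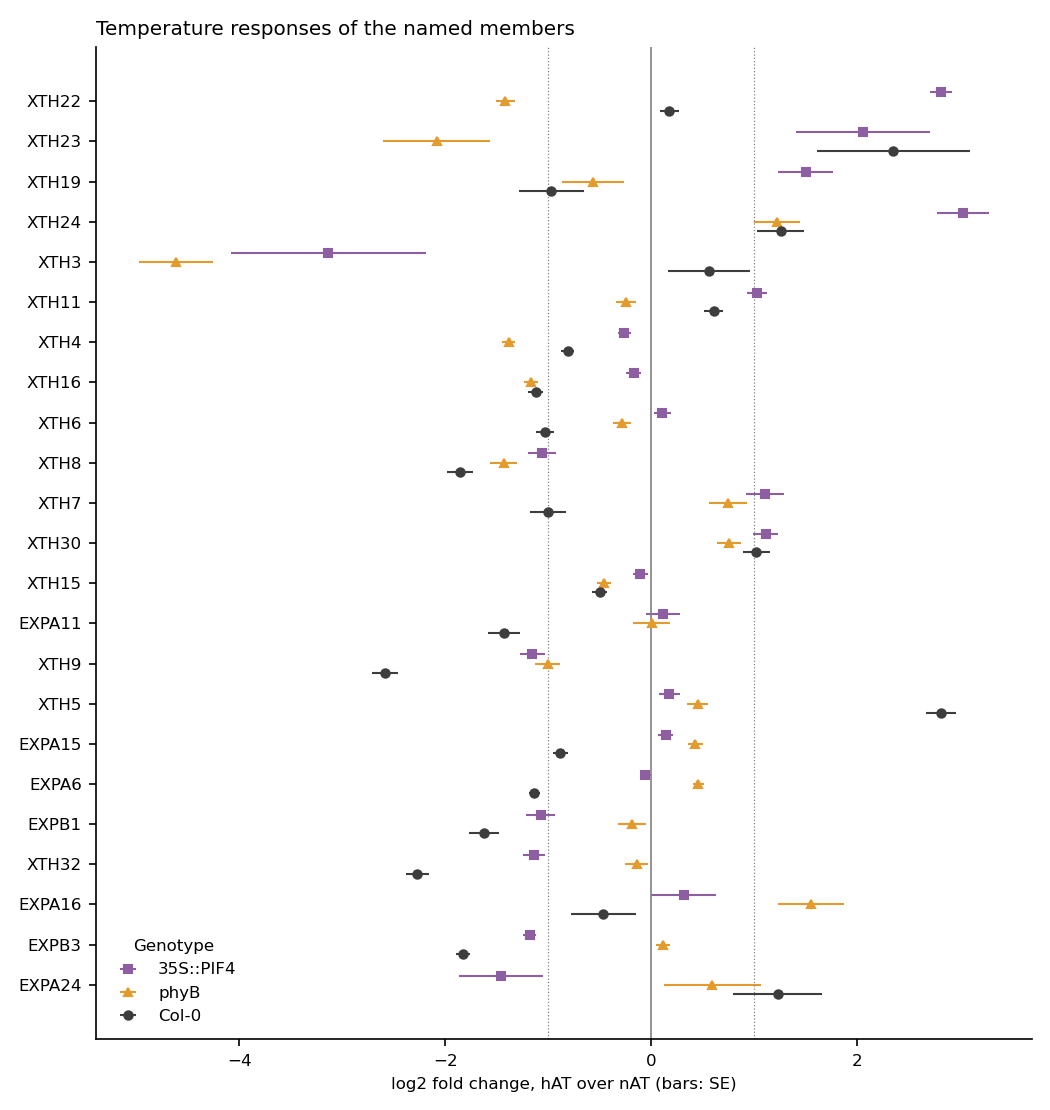
Log2 fold change of hAT over nAT (horizontal axis) for the named members in 35S::PIF4, phyB and Col-0, with bars of 1 SE of the fit on 4 libraries per group. XTH22 lies at 2.82 in 35S::PIF4 and at -1.42 in phyB, and XTH5 lies at 2.82 in Col-0 against 0.18 in 35S::PIF4 and 0.45 in phyB.

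The genotypes were then compared at nAT. In phyB, 11 of the 37 tested members were lower than in Col-0 and 4 higher, where 11.9% of all genes were called lower and 21.2% higher. EXPA11 had 8.53, 8.45, 7.20 and 9.43 CPM in phyB at nAT, against 43.4, 67.0, 35.5 and 40.3 CPM in Col-0 at nAT, and fell by 2.47 (SE 0.17, adjusted p = 5.61e-13). XTH9, XTH7, XTH32 and EXPB3 fell by 1.65, 1.62, 1.55 and 1.49. EXPA16, EXPA6, EXPA4, EXPA9, EXPA5 and XTH28 fell by 1.04 to 1.35, so that 6 of the 13 tested EXPA genes were lower and none was higher. With the length offset EXPA5, EXPA9 and XTH28 were no longer past the fold of 2. The members' median was -0.638 without the offset and -0.254 with it, beside 0.107 and -0.018 over all genes.

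The 4 members that rose in phyB at nAT were all XTH genes. They made up 19% of the 21 tested XTH genes, near the 21.2% of all genes called higher, and 4 other XTH genes were called lower. With the length offset EXPA23 was also called higher, at 1.32. XTH3 had 7.09, 7.60, 8.63 and 5.79 CPM in phyB, against 1.04, 0.242, 0.539 and 1.03 CPM in Col-0, and rose by 3.29 (SE 0.34, adjusted p = 1.87e-09). The lowest phyB library was more than 5 times the highest Col-0 library. XTH22 had 51.6, 49.9, 52.1 and 52.2 CPM in phyB, against 19.6, 21.1, 24.9 and 20.7 CPM in Col-0, and rose by 1.25 (SE 0.09, adjusted p = 3.98e-12). XTH5 and XTH23 rose by 2.62 and 3.25.

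In 35S::PIF4 at nAT, 11 members were lower than in Col-0 and 2 higher, where 12.2% of all genes were called lower and 19.3% higher. Their median log2 fold change was -0.781, beside 0.041 over all genes. XTH7 had 3.83, 4.23, 4.12 and 2.83 CPM in 35S::PIF4 at nAT, against 13.7, 19.3, 15.03 and 11.9 CPM in Col-0 at nAT, and fell by 1.97 (SE 0.18, adjusted p = 3.01e-10). EXPA11 and XTH9 fell by 1.90 and 1.83. XTH24 fell by 1.80 and XTH22 by 1.75. XTH22 had 5.62 to 7.30 CPM in 35S::PIF4 and 19.6 to 24.9 CPM in Col-0. At nAT XTH22 was above its Col-0 level in phyB and below it in 35S::PIF4. XTH5 rose by 2.59. With the length offset EXPA6, XTH16, XTH28, EXPA9 and XTH8 were no longer past the fold of 2. EXPB3 (-1.035) and XTH32 (-1.017) then passed it as lower, and XTH29 (1.022) as higher.

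Tissue markers differed in the same comparisons at nAT. Against Col-0, 5 of the 8 pollen markers were called higher in phyB and 6 of 8 in 35S::PIF4. Of the 5 tested tapetum markers, 3 were higher in phyB, and 1 was higher and 2 lower in 35S::PIF4. PI was lower in both genotypes, by -1.10 in phyB and -1.34 in 35S::PIF4 on the log2 scale. The part of these tissues in the members' differences was not tested.

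At hAT fewer members were called between genotypes. In phyB, 4 members were lower than in Col-0 and 1 higher, where 3.22% of all genes were called lower and 1.56% higher. XTH11 had 19.7, 22.1, 17.5 and 18.1 CPM in phyB at hAT, against 41.3, 41.0, 39.8 and 39.6 CPM in Col-0 at hAT, and fell by 1.07 (SE 0.09, adjusted p = 2.77e-09). EXPB1 had 6.65, 6.41, 5.08 and 5.39 CPM in phyB, against 2.82, 3.07, 2.28 and 2.59 CPM in Col-0, and rose by 1.12 (SE 0.15, adjusted p = 1.38e-06). XTH3, EXPA24 and EXPA11 were called lower, with log2 fold changes of -1.89, -1.17 and -1.03. The EXPA11 fold was under 2 without Col-0 replicate 4 (-0.97) or without phyB replicate 1 (-0.99) or 2 (-0.90), and XTH11 was at -0.95 without phyB replicates 3 and 4.

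In 35S::PIF4 at hAT, 2 members were lower than in Col-0 and 1 higher, where 1.61% of all genes were called lower and 1.47% higher. XTH19 had 4.80, 2.78, 3.77 and 4.07 CPM in 35S::PIF4, against 0.812, 0.977, 1.27 and 0.852 CPM in Col-0, and rose by 1.98 (SE 0.29, adjusted p = 8.87e-06). XTH3 had 2 counts in 35S::PIF4 and 106 in Col-0, a ratio of rates of 0.0206 with an exact 95% interval of 0.00246 to 0.0761 for counting error. EXPA24 was called lower, with a log2 fold change of -1.41, but not without Col-0 replicate 2 or 35S::PIF4 replicate 2, when its adjusted p was over 0.05.

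Some abundant members were not called in any comparison because none of their folds reached 2, though their libraries could lie apart. EXPA8 was higher at hAT by 0.754 in phyB and by 0.663 in 35S::PIF4 on the log2 scale, with no overlap of libraries in either. So were 23.2% of all genes tested in phyB and 25.2% in 35S::PIF4 higher at hAT without overlap. XTH15, known from shade responses, had 101 ± 3 CPM in 35S::PIF4 at hAT and 109 ± 17 at nAT, 170 ± 11 in phyB at hAT and 234 ± 6 at nAT, and 115 ± 4 in Col-0 at hAT and 163 ± 7 at nAT. None of its comparisons passed the fold of 2. An opposite-strand gene, AT4G14120, shares 382 bases with XTH15, and since no source used here states a strand setting for the counting, their reads may not be told apart; it held 4997 counts, against 79165 for XTH15. XTH27 had group means of 41.2 to 56.9 CPM, and EXPA8 had 83.2 CPM in 35S::PIF4 at hAT and 52.6 at nAT, 85.4 in phyB at hAT and 50.7 at nAT, and 72.9 in Col-0 at hAT and 85.6 at nAT.

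At the low end, 13 members were not detected. EXPA7, EXPA18, EXPB6, XTH2, XTH13, XTH21 and XTH26 had no count in any library, and the other 6 had 1 to 3 counts. EXPA7 and EXPA18 are known as root hair expansins and EXPA2, with 1 count, as a gene of germinating seeds. Another 9 were detected with 10 to 121 counts and were not tested, XTH18 being the highest. EXPA21, with 74 counts, shares 964 bases with an opposite-strand gene of 4873 counts.

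The genes that make xyloglucan were read in the same fit. In Col-0, 5 of 13 synthesis genes fell at hAT and 1 rose, with a median of -0.602, where 13.4% of all genes were called lower and 24.2% higher. XXT2, a xylosyltransferase that adds the side chains, had 81.9 CPM at hAT and 229 CPM at nAT, and fell by 1.48 (SE 0.05, adjusted p = 1.56e-18). XXT1, XXT3, XXT5 and the galactosyltransferase XLT2 fell by 1.12 to 1.19, and XXT4 rose by 1.15. None of the 13 was called in phyB or in 35S::PIF4 between temperatures, where the medians were -0.063 and -0.233. Between 2.48% and 8.5% of all genes were called in either direction there, so a count of 0 among 13 is near that background. Of 4 other xyloglucan-modifying genes, the wall hydrolases XYL1, BGAL10 and AXY8 were not called between temperatures in any genotype. AXY4, which acetylates xyloglucan in the Golgi, fell by 1.22 in Col-0 and was not called in phyB or 35S::PIF4.

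Among the 4 expansin-like genes, EXLA1 rose by 1.64 in Col-0 and by 2.19 in 35S::PIF4 at hAT, while EXLA2 fell by 1.79 in Col-0 and by 1.34 in phyB. EXLB1 fell by 1.39 in phyB, and EXLA3 rose by 1.53 in 35S::PIF4. Of 9 primary wall genes, only CSI1, which links cellulose synthase to microtubules, was called in Col-0, where 24.2% of all genes were called higher. It rose by 1.02, close to the threshold, and its value with the length offset is not given here. None of the 9 was called between temperatures in phyB or 35S::PIF4. Of 3 secondary wall cellulose synthases, CESA4 and CESA7 rose by 1.37 and 1.02 in Col-0.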

How the data were processed

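Pistil RNA of 24 libraries was sequenced as 150 bp paired reads of polyadenylated RNA. Per the labels and the study's methods, the authors trimmed reads, mapped them to TAIR10 with the Araport11 annotation and deposited whole-number counts per gene from featureCounts. Neither the aligner nor the strand setting is named in the sources used here. The labels name ovules at extraction and pistils as the tissue. A second deposited table, of FPKM values, was not used.

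Counts were fitted with edgeR 4.0.16 in R 4.3.3, with TMM factors, filterByExpr, 6 group means and the quasi-likelihood test over 21312 genes (18 residual degrees of freedom). Genes were called at a Benjamini-Hochberg adjusted p under 0.05 and a log2 fold change of 1 or more in either direction. The SE is the fold change divided by the root of F. There were 7 comparisons and 3 differences of responses. Levels are TMM-scaled CPM, computed here. The 4 replicates of a group are biological per the study's methods. The p-values and SEs rest on 1 spread per gene among replicates, pooled over the 6 groups, and not on that of the compared groups alone. The chi-square of library pairs, divided by its degrees of freedom, is near 1 for counting error alone. It was 1.74 to 2.64 in phyB at nAT, 1.84 to 2.53 in Col-0 at hAT and 2.15 to 3.07 in 35S::PIF4 at hAT. It reached 8.02 in phyB at hAT, 12.06 in 35S::PIF4 at nAT and 61.99 in Col-0 at nAT. The pooled spread may therefore understate the spread of Col-0 at nAT, and the p-values and SEs of comparisons with that group carry this limit. Whether replicates in the close groups capture the spread among separately grown plants was not tested. The smallest p-values carry this limit.

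The members and lists were chosen with earlier results of these data known. Named members were the 8 highest in CPM per kb, up to 5 per direction and comparison whose higher group averaged 1 CPM or more, and up to 4 per difference of responses; the lower-level members and list genes named beside them were chosen after their values were seen. Alternatives were RLE factors, no filter, DESeq2 1.42.0, an offset removing each library's lowess trend on gene length, a replicate block, a fit on the compared groups, no fold threshold and leaving out each library. Leaving out phyB replicates 3 and 4 at hAT, and adding the AT-prefixed genes, were chosen after seeing the data. Sequences were read from the TAIR10.1 RefSeq genome, on which all 59 members had the coordinates of the deposited table; the active-site and motif searches used Biopython 1.88, and BRRE and heat shock motifs were added after seeing the data.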

Additional observations from a re-analysis of the deposited data

Results flagged for a closer look

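Of 138 sets of 4 libraries, 8 held a library far from the other 3 by Dixon's test at 95%, and chance flags about 1 set in 20. EXPA6 stood at 565.1 CPM in phyB replicate 3 at hAT and at 473.4 CPM in 35S::PIF4 replicate 3 at hAT. In Col-0 at nAT, replicate 2 stood at 302 CPM for EXPA15 and at 287.6 CPM for XTH6. XTH32 stood at 19.18 CPM in phyB replicate 3 at hAT, and EXPA16 at 1.053 CPM in 35S::PIF4 replicate 4 at hAT. In 35S::PIF4 replicate 4 at nAT, XTH30 stood at 4.599 CPM and XTH23 at 0.4645 CPM.

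The temperature response differed between genotypes by edgeR's test of the difference for 7 members named for its size. The phyB response minus that of Col-0 was -5.179 for XTH3 (adjusted p = 4.51e-09), -4.436 for XTH23 (adjusted p = 9.90e-05), -2.361 for XTH5 (adjusted p = 1.46e-11) and 2.131 for XTH32 (adjusted p = 7.36e-12). The 35S::PIF4 response minus that of Col-0 was -3.699 for XTH3 (adjusted p = 0.00254), -2.686 for EXPA24 (adjusted p = 2.91e-04), 2.638 for XTH22 (adjusted p = 2.10e-14) and -2.637 for XTH5 (adjusted p = 2.24e-12). The 35S::PIF4 response minus that of phyB was 4.232 for XTH22 (adjusted p = 2.43e-18), 4.14 for XTH23 (adjusted p = 5.64e-04), 2.062 for XTH19 (adjusted p = 4.29e-04) and -2.053 for EXPA24 (adjusted p = 0.0168).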

How the results depend on the processing

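No fold change of a named member reversed under any alternative run. With the replicate block, 62 of 62 named calls held. Deviations of same-numbered libraries had correlations of -0.065 to 0.174, so no clear pairing by number was seen. Such values cannot show whether libraries shared a batch or a harvest. DESeq2 and RLE factors each left 61 of 62 calls, losing XTH30 in Col-0. These settings, no filter and the length offset left the 20 counts of members called within 1.5 times. The length offset moved the median of all genes in Col-0 to 0.000, against 0.142. In the fit on the compared groups, 4 members were higher in Col-0 and 2 in phyB at hAT. With the replicate block and length offset together, 7 were lower at nAT in 35S::PIF4 against Col-0. With no fold threshold, 8 members were higher and 22 lower in Col-0 at hAT (44.7% and 35.5% of all genes), 13 higher and 10 lower in phyB (21.5% and 22.4%), which turns the balance of 4 higher and 7 lower, and 11 higher and 14 lower in 35S::PIF4 (25.6% and 27.5%). At nAT 5 were then higher and 22 lower in phyB (42.5% and 35.2% of all genes), and 2 higher and 27 lower in 35S::PIF4 (39.9% and 37%), against Col-0. At hAT 9 were higher and 7 lower in phyB (13.9% and 16.1%), and 4 higher and 8 lower in 35S::PIF4 (10.2% and 12%). Of the responses against Col-0, 20 were then higher and 6 lower in phyB (29.8% and 39.6%), and 25 higher and 4 lower in 35S::PIF4 (32% and 37.4%), while 35S::PIF4 against phyB had 10 of each direction (12.8% and 12.2%). The cause was not tested beyond the dropped threshold. Without phyB replicates 3 and 4 at hAT, 1 member rose in phyB. With the AT-prefixed genes added, 40 genes were tested. The phyB response was then higher than that of Col-0 for 14, against 11 (10.6% of all genes). At nAT 12 were lower in phyB than in Col-0, against 11 (11.9% of all genes). The other counts called did not change. Leaving out 1 library at a time gave 1 to 4 members higher in phyB at hAT (1 without phyB replicate 3), 1 to 3 higher at nAT in 35S::PIF4 against Col-0 (1 without 35S::PIF4 replicate 4), 2 to 5 lower in phyB than in Col-0 at hAT (2 without phyB replicate 1), 1 to 3 lower at hAT in 35S::PIF4 against Col-0 (1 without replicate 2 of either), and 1 to 5 with a lower response in 35S::PIF4 than in phyB (5 without phyB replicate 1 at hAT, 1 without replicate 3). The shares of all genes called are not given for the fit on the compared groups, the block with length offset, or the runs without 1 library. Those member counts therefore cannot be set beside a background. Members with under 1 CPM in a group are limited by depth.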
